A study of Mus musculus with 8 samples.

Results

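Guanylate-binding proteins (GBP) and immunity-related GTPases (IRG) are 2 families of interferon-inducible GTPases, and 10 of their genes were followed in splenic lymphocytes of mice labelled as *Tyk2* knockouts. The members are *Gbp2*, *Gbp3*, *Gbp4*, *Gbp6*, *Gbp7*, *Gbp8* and *Gbp9* of the GBP family and *Irgm1*, *Irgm2* and *Igtp* of the IRG family, chosen by name from 54232 genes in the count table, and all 10 had counts. RNA-seq libraries of FACS-purified NK cells (natural killer cells) and CD8+ T cells were compared, with 3 libraries per cell type. All 6 libraries came from C57BL/6 mice (C57BL/6N in the study's methods) with a *Tyk2* knockout (*Tyk2*-/-), aged 8 to 12 weeks, under homeostatic conditions, that is, without any treatment after isolation. Each library held cells pooled from the spleens of 3 littermates, so the mouse-to-mouse spread within a pool was not measured. Both groups carried the knockout and WT libraries were not used here, so every comparison below is between cell types within the mutant and none measures an effect of TYK2.

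TYK2 is a Janus kinase bound to the receptor for type I interferons, where it works with JAK1 to activate transcription factors of the STAT family. A complex of these factors with IRF9 binds interferon-stimulated response elements (ISRE), and STAT dimers bind gamma-activated sites (GAS). GBP and IRG proteins are made at low levels in resting cells, rise strongly after interferon, and are known for their action against bacteria and parasites that live inside vacuoles. GBPs are large GTPases that assemble into coats on vacuoles and bacteria and promote inflammasome activation. The IRGM proteins IRGM1, IRGM2 and IRGM3 (the last encoded by *Igtp*) sit on endomembranes of the cell itself, and they keep effector IRGs such as the product of *Tgtp2* in an inactive state.

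The members lie in 4 groups of neighbours on build GRCm38. *Gbp7* (chromosome 3, 142530342 to 142550149), *Gbp3* (142560026 to 142573209) and *Gbp2* (142620602 to 142638008) follow each other on the plus strand of chromosome 3. *Gbp8* (chromosome 5, 105014150 to 105139540), *Gbp9* (105077630 to 105139539), *Gbp4* (105115767 to 105139586) and *Gbp6* (105270702 to 105293698) lie on the minus strand of chromosome 5. *Irgm1* stands alone on the minus strand of chromosome 11 (48861968 to 48871683), and *Igtp* (58199556 to 58207591) and *Irgm2* (58199618 to 58222782) overlap on its plus strand. The annotated exons of *Igtp* and *Irgm2* share 162 bases, and reads in those bases could not be assigned to one of the genes.

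The 2 IRG classes and the GBPs can be told apart by the codons of the first GTP-binding loop. These 8 codons are shown because the split between IRGM genes and the other GTPases is the family division used below. The capitals mark the seventh codon, read from GENCODE transcripts, 5′ to 3′. It is ATG, the methionine codon that gives the GMS class of IRGs its name, in the 3 IRGM members, and a lysine codon (AAA or AAG) in the 7 GBPs and in the effector IRG gene *Tgtp2*.
Irgm1, Irgm2 and Igtp: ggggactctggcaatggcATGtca
Tgtp2: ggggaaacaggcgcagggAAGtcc
Gbp6, Gbp8 and Gbp9: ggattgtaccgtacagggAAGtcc
Gbp4: ggatggtcccatacagggAAGtcc
Gbp2: ggcctctaccgcacaggcAAAtcc
Gbp3: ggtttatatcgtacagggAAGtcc
Gbp7: ggactataccgtacgggaAAAtcc
The 24 bases were identical in the 3 IRGM members and likewise in *Gbp6*, *Gbp8* and *Gbp9*, genes of the chromosome 5 cluster.

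RefSeq promoters (250 bases before to 50 after the start site, GRCm38.p6) were found for 6 of the 10 members, namely *Gbp2*, *Gbp3*, *Gbp7*, *Irgm1*, *Irgm2* and *Igtp*. They are shown because the letters of the elements bound downstream of TYK2 stand close to the start sites of these genes. The capitals mark ISRE letters (GAAA, any 2 bases, GAAA, or TTTC, any 2 bases, TTTC when read from the other strand) and GAS letters (TTCNNNGAA, the same on both strands), and each sequence is written 5′ to 3′ on the strand of the gene.
Gbp2, chr3:142620594-142620623, plus strand: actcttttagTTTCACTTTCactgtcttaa
Gbp3, chr3:142559934-142560043, plus strand: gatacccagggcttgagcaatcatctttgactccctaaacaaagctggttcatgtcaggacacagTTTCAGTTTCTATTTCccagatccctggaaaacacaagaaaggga
Gbp7, chr3:142530226-142530335, plus strand: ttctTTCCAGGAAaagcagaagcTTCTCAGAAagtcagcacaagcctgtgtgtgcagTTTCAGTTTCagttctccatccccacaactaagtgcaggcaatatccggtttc
Irgm1, chr11:48871421-48871530, minus strand: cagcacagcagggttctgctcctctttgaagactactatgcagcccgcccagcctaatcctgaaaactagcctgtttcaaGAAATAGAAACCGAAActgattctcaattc
Igtp, chr11:58199446-58199555, plus strand: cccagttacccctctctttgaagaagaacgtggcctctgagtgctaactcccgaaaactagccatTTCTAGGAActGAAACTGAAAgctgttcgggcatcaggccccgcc
Irgm2, chr11:58214867-58214976, plus strand: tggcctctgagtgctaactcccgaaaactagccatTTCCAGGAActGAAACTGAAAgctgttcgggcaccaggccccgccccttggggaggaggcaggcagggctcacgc
ISRE letters stood in 6 of 6 member promoters, against 3.99% of the 27025 genes in the promoter table. GAS letters stood in 3 of 6 (*Gbp7*, *Igtp* and *Irgm2*), against 9.55% of genes. The ISRE letters began between 64 bases (*Irgm2*) and 24 bases (*Irgm1*) before the RefSeq start site, and in *Gbp3* and *Irgm1* a pair of matches overlapped. The GENCODE model of *Gbp2* begins further upstream, at 142620602, so its ISRE letters lie within an annotated exon. That of *Irgm2* begins at 58199618, near the start of *Igtp* and far upstream of the *Irgm2* promoter shown. The GENCODE gene ranges of *Irgm1* (minus strand) and *Gbp3* also start upstream of their RefSeq sites, at 48871683 and 142560026. The stretches shown for *Irgm1* and *Gbp3* hold no base of an annotated exon. *Igtp* and *Irgm2* have nearly the same promoter: with *Irgm2* shifted by 30 bases, 78 of 80 compared bases were identical (97.5%), and both genes had the GAS letters 2 bases upstream of the ISRE letters. A match of letters is a description of the sequence and does not show that a factor was bound in these cells.

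**Figure D1:**
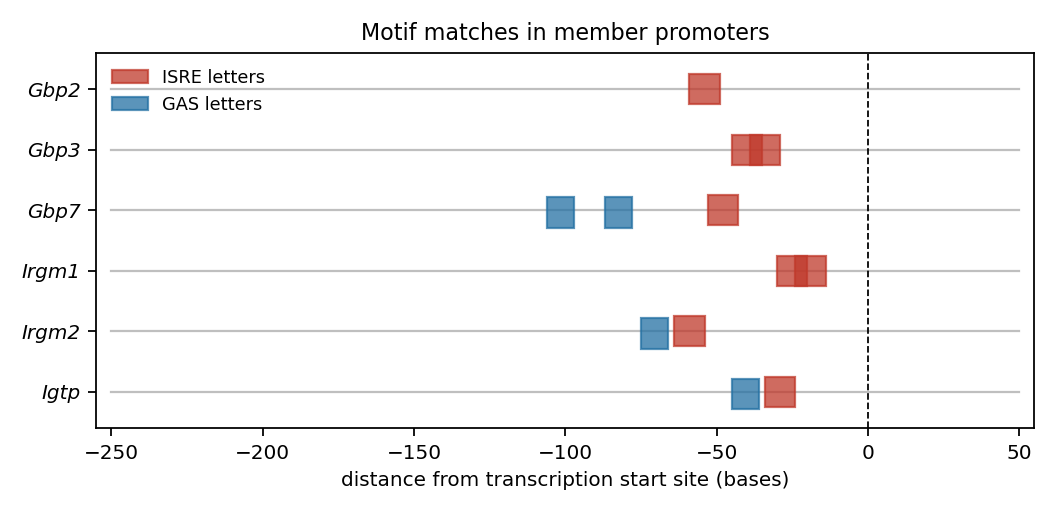
Positions of ISRE letters (red) and GAS letters (blue) in the promoters of 6 members, as distance in bases from the transcription start site (dashed line), each grey line covering the 300 bases searched. All ISRE matches lie within 64 bases upstream of the RefSeq start site, and GAS matches are seen in *Gbp7*, *Irgm2* and *Igtp*.

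Total counts per library ranged from 20957384 to 26144478 in CD8+ T cells, compared with 32848432 to 38573550 for NK cells, and 12893 to 14042 genes had a count in CD8+ T cells against 17224 to 17373 in NK cells. The targeted gene, *Tyk2*, gave 105, 919 and 554 raw counts in CD8+ T cells, against 3864, 4245 and 3207 in NK cells, so reads on the gene were present in all 6 libraries labelled *Tyk2*-/-, and these counts cannot check the genotype. Defining markers bore out the cell type labels. *Ncr1* was at 0 in the 3 CD8+ T cell libraries and had raw counts of at least 137008 in NK cells. *Cd8b1* was at 0 in the 3 NK cell libraries and had at least 60044 in CD8+ T cells. Of 8 NK cell markers, 6 were called higher in NK cells by the test described below, against 6.24% of all genes tested. Of 8 CD8+ T cell markers, 6 were called lower, against 5.14%. *Klrd1*, *Tyrobp*, *Cd3e* and *Cd28* were not called, and the libraries of *Cd28* overlapped. Raw counts of *Cd3d* and *Cd3g* in NK cells were 2978 to 8065 and 4337 to 7598. Markers of other cells also differed. The summed normalised count of 6 B cell markers was 49421 to 75450 in CD8+ T cells, against 10965 to 13137 in NK cells, most of it *Ighm*, with *Pax5* at 0 in CD8+ T cells. Raw counts of *Cd79a* and *Ms4a1* were 347 and 405 for CD8+ T cell library 1, and between 0 and 17 for the other CD8+ T cell libraries. Of the CD8+ T cell libraries, library 2 alone had counts of *Tyrobp* (544) and *Itgax* (124). *Fcer1g* (456, against 117 and 2) and *Klrd1* (7978, against 2336 and 2791) were also highest there. *Klrb1c* and *Eomes* were highest in library 3, *Klrk1* had 170 to 191, and *Ncr1* and *Itga2* were at 0 in all 3. The sum of 8 myeloid markers was 3.6 to 222 in CD8+ T cells, against 3080 to 4835 in NK cells, mainly from *Itgax*, *Itgam* and *Cd68*, the first pair of which NK cells also express, whereas *Adgre1* and *Cebpa* were at 0 in all 6 libraries. The sum of 6 erythroid markers was 2.9 to 45.3 in CD8+ T cells, against 23.4 to 116 in NK cells. The part of these markers in the differences below was not tested, and in sorted populations of this kind fewer cells of a type and less RNA per cell cannot be told apart.

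Several GBP and IRG genes were lower in NK cells than in CD8+ T cells. Of the 10 members, 5 passed the test across all genes (*Gbp9*, *Gbp2*, *Igtp*, *Gbp8* and *Gbp4*), all 5 of them lower in NK cells, by 3.00-fold (*Gbp4*) to 13.0-fold (*Gbp9*). No member was called higher. Across the 14062 genes tested, 11.4% were called in either direction, 5.14% lower in NK cells and 6.24% higher. In 7 of the 10 members every NK cell library lay below every CD8+ T cell library, a pattern held by 16.1% of all genes tested, and in none did every NK cell library lie above, as it did in 25.5% of genes (41.6% had no overlap in either direction). The median log2 fold change was -1.68 over the 10 members and 0.10 over all genes tested. Genes were tested with the quasi-likelihood F test of edgeR, adjusted by Benjamini and Hochberg's method over all 14062 genes, and called at an adjusted p below 0.05. Between replicates genes varied widely, with a common biological coefficient of variation of 1.11. An exact permutation test of 3 against 3 libraries cannot go below p = 0.1, the value reached by each of the 7 members without overlap.

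**Figure D2:**
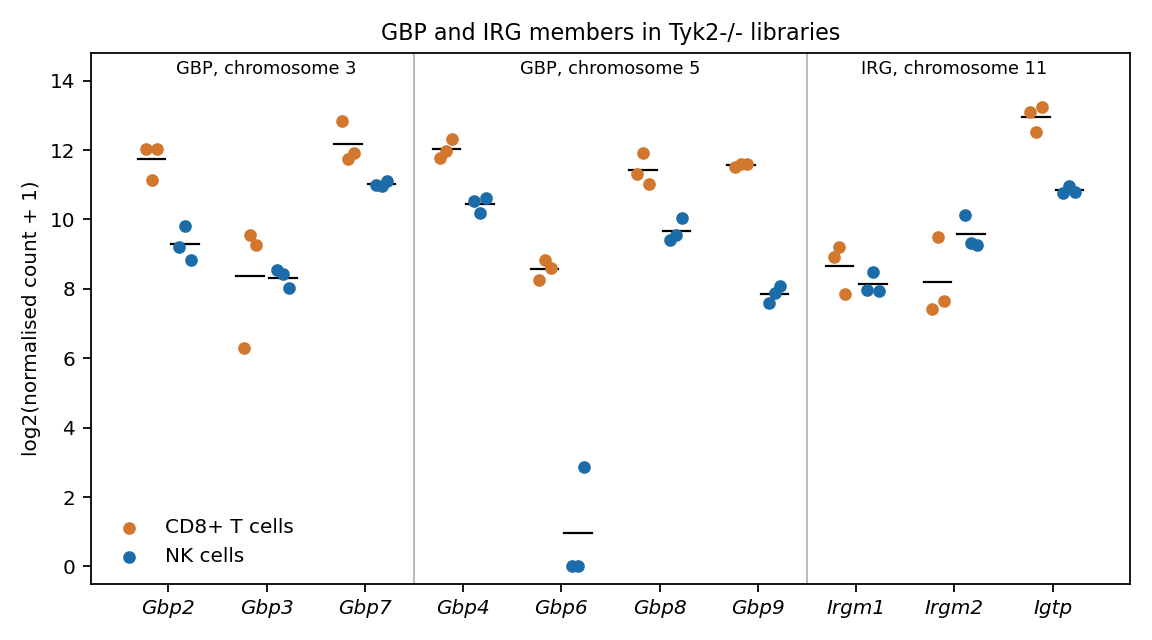
Normalised counts of the 10 members, as log2(normalised count + 1), in each library of CD8+ T cells (orange) and NK cells (blue); black bars are the means of the 3 plotted values. NK cell points lie below all CD8+ T cell points in 7 members, whereas they overlap in *Gbp3*, *Irgm1* and *Irgm2*.

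In the chromosome 5 cluster all 4 GBP genes had separate libraries. Normalised counts, scaled with TMM factors to the mean effective library size, are given for CD8+ T cell libraries 1 to 3 and then NK cell libraries 1 to 3. *Gbp9* had 2896, 3084 and 3098.5 in CD8+ T cells, against 191, 236 and 269 in NK cells. It had the closest CD8+ T cell replicates of the 10 members, and the NK cell libraries were all far below them. The mean was 3026 ± 113 (SD, n = 3) in CD8+ T cells, against 232 ± 39.2 (SD, n = 3) in NK cells, a log2 fold change of -3.71 (SE 0.34, edgeR adjusted p = 0.00151). *Gbp8* had 2552, 3848 and 2059 in CD8+ T cells, against 684, 753 and 1047 in NK cells. The highest NK cell library thus stayed below the lowest CD8+ T cell library, and the log2 fold change was -1.77 (SE 0.38, edgeR adjusted p = 0.0330).

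*Gbp4* encodes a GBP without the lipid anchor motif that some other GBPs carry. It had 3467, 4048 and 5155 normalised counts in CD8+ T cells, against 1476, 1158 and 1587 in NK cells. The groups were separate, and the log2 fold change was -1.59 (SE 0.28, edgeR adjusted p = 0.0178). *Gbp6* had 305, 456 and 384 normalised counts in CD8+ T cells, against 0, 0 and 6.3 in NK cells, from raw counts of 249, 372 and 397 against 0, 0 and 7. It was the member with the lowest counts in NK cells, where reads were found in library 3 alone. Its log2 fold change of -7.42 carried an SE of 2.10, did not pass the edgeR test (adjusted p = 0.0675) and depends on how the fit treats counts near 0. With DESeq2's Wald test *Gbp6* passed (adjusted p = 2.51e-05), and over all alternatives its adjusted p reached up to 0.165. The counts of *Gbp6* are uncertain, because 66.3% of its exon bases are also annotated to *Gm43302*, which had 0 counts in all 6 libraries, and 90.2% of its 50-base stretches, the read length, also occur in another gene. For the other members the share of 50-base stretches found in another gene was between 0.956% (*Irgm1*) and 21.2% (*Gbp8*).

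Of the 3 chromosome 3 genes, *Gbp2* alone was called. *Gbp2*, which encodes a GBP anchored to membranes by a lipid, had 4166, 2270.1 and 4202 normalised counts in CD8+ T cells, against 592, 899 and 455 in NK cells. Every NK cell library was below every CD8+ T cell library. The mean fell from 3546 ± 1105 (SD, n = 3) to 648 ± 227 (SD, n = 3), a log2 fold change of -2.45 (SE 0.42, edgeR adjusted p = 0.0165). *Gbp7*, its neighbour, had 7391, 3423 and 3846.5 in CD8+ T cells, against 2051, 1994 and 2225 in NK cells. Here the libraries did not overlap either, but CD8+ T cell library 1 was far above the others. The log2 fold change of -1.23 (SE 0.35) did not pass the edgeR test (adjusted p = 0.0684) and passed DESeq2's Wald test (adjusted p = 0.0178), with an adjusted p of up to 0.192 over all alternatives. *Gbp3* had 78.3, 751 and 616 normalised counts in CD8+ T cells, against 371, 343 and 259 in NK cells. CD8+ T cell library 1 was the lowest of all 6 libraries for *Gbp3*, the same library that was highest for *Gbp7*. The groups overlapped, with a log2 fold change of -0.57 (SE 0.94, edgeR adjusted p = 0.729, two-sided exact permutation test p = 0.5).

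Of the 3 IRGM members, *Igtp* alone was called, and differences between the members' fold changes were not tested. *Igtp* had 8777, 5914 and 9694 normalised counts in CD8+ T cells, against 1727, 2014.5 and 1776 in NK cells. Its NK cell libraries were close to each other and all below the CD8+ T cell libraries. The log2 fold change was -2.14 (SE 0.26, edgeR adjusted p = 0.00477), a 4.42-fold difference. *Irgm1*, which is known for its part in autophagy and in the survival of T cells after interferon gamma, had 481, 594 and 228 normalised counts in CD8+ T cells, against 247, 360.2 and 245 in NK cells. The lowest of the 6 was a CD8+ T cell library, and the groups overlapped (log2 fold change -0.61, SE 0.75, edgeR adjusted p = 0.629, exact permutation test p = 0.4).

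*Irgm2* was the 1 member whose mean was higher in NK cells. It had 171, 715 and 200.3 normalised counts in CD8+ T cells, against 1130, 634 and 618 in NK cells. CD8+ T cell library 2 lay above 2 of the NK cell libraries, so the groups overlapped. The log2 fold change was 1.13 (SE 0.78) and was not significant (edgeR adjusted p = 0.366, exact permutation test p = 0.3). Without CD8+ T cell library 2 the log2 fold change of *Irgm2* was 2.13 (edgeR adjusted p = 0.0869, with a range of 0.0869 to 0.709 over all alternatives).

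**Figure D3:**
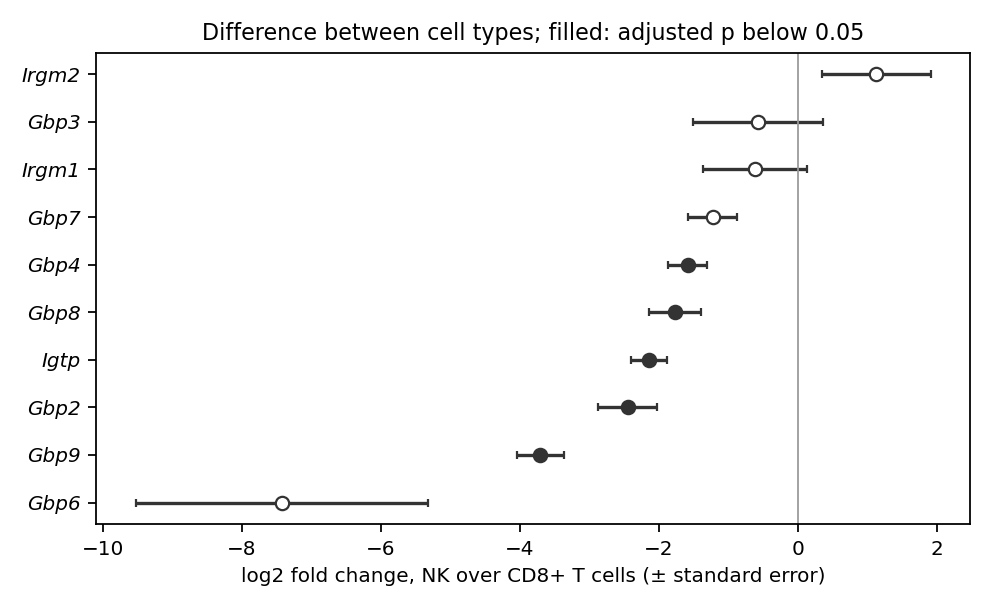
Log2 fold change of each member in NK cells over CD8+ T cells, with bars of 1 standard error from the edgeR fit; filled points passed the test at an adjusted p below 0.05. The 5 filled points lie between -3.71 (*Gbp9*) and -1.59 (*Gbp4*), and *Irgm2* alone has a positive value, 1.13.

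The calls depended on the NK cell libraries that entered the fit. Without CD8+ T cell library 1, 2 or 3, 5 members were called each time, and 1669, 1946 and 1808 of all genes tested (1600 with all libraries). Without NK cell library 1, 2 or 3, the number of members called was 2, 3 and 2, and that of all genes was 482, 485 and 476. *Gbp9* and *Igtp* were called in all 6 of these fits, *Gbp2* in 4, *Gbp4* in 3 and *Gbp8* in 2. *Gbp2* was not called without NK cell library 1 or 3 (edgeR adjusted p = 0.0931 and 0.0829), and *Gbp4* and *Gbp8* were not called without any 1 of the NK cell libraries (edgeR adjusted p = 0.0802 to 0.0934 and 0.0979 to 0.145). Leaving out CD8+ T cell library 2 brought *Gbp7* just under the threshold and lost *Gbp8* (edgeR adjusted p = 0.0585, with a range of 0.000348 to 0.145 for *Gbp8* over all alternatives). No member changed its direction in any of these fits. DESeq2's Wald test called 7 members, all lower in NK cells, where it called 29.6% of genes in either direction, 12.7% lower and 16.9% higher.

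The levels of different genes were compared as CPM (counts scaled to library size, with TMM factors) per kilobase of merged exons, since a longer gene collects more reads. In CD8+ T cells *Igtp* stood first with a mean of 139 ± 33.7 (SD, n = 3) and was separated from the rest, in that its lowest library (101) lay above the highest of the next gene. *Gbp2* (48.8), *Gbp8* (39.7), *Gbp4* (32.2), *Gbp7* (30.1) and *Gbp9* (23.6) formed a second group in which neighbours in the order overlapped. Below *Gbp9* came a gap, and *Irgm1* (6.52), *Gbp3* (5.46), *Gbp6* (5.07) and *Irgm2* (3.40) overlapped with their neighbours again. *Igtp* made up 34.6% to 46.4% of the summed level of the 10 members in CD8+ T cells.

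In NK cells the order was different. *Igtp* was again first, at 31.5 ± 2.63 (SD, n = 3) CPM per kilobase, and separate from the next gene. *Gbp7* (12.9), *Gbp8* (11.7), *Gbp4* (10.7), *Gbp2* (8.92) and *Irgm2* (7.44) followed, each overlapping with its neighbour. *Irgm1* (4.27) and *Gbp3* (3.67) overlapped with each other and stood apart from *Irgm2* above and from *Gbp9* below. *Gbp9* was ninth at 1.81 and *Gbp6* last at 0.0279. Thus *Gbp9*, in the middle group of CD8+ T cells, came behind all members but *Gbp6* in NK cells, while *Irgm2*, last in CD8+ T cells, came sixth. The CD8+ T cell level of *Irgm2* was 1.74 without library 2. Taking only exon bases that no other gene shares raised the level of *Gbp6* to 15.0 in CD8+ T cells, above *Irgm1*.

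**Figure D4:**
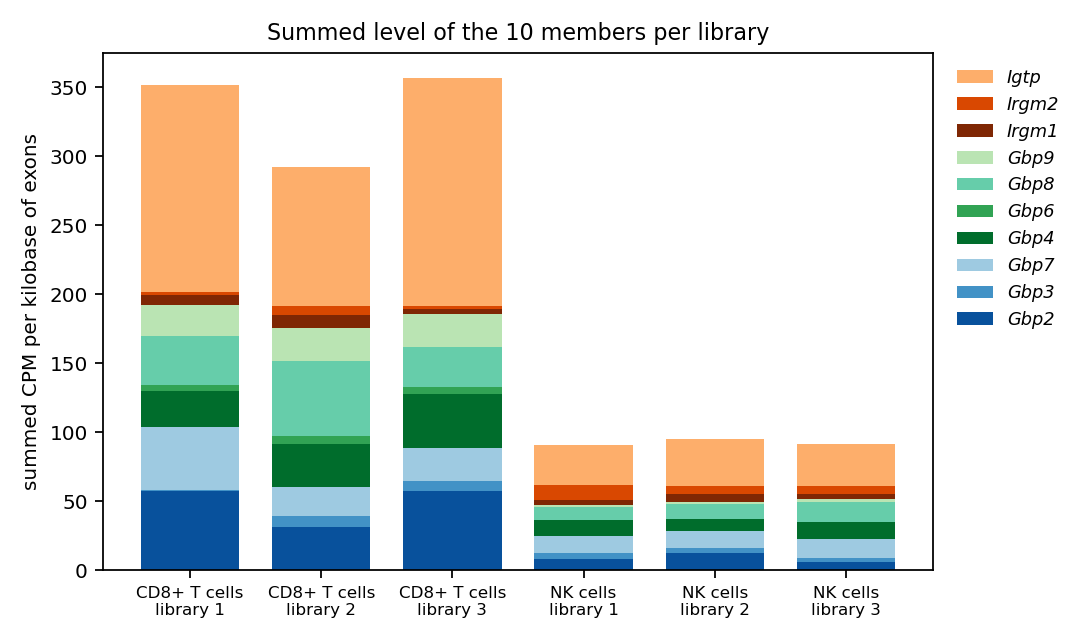
Level of each member stacked per library, in CPM per kilobase of exons, for the 3 CD8+ T cell and the 3 NK cell libraries; the height of a bar is the sum over the 10 members. CD8+ T cell bars reach 293 to 357 and NK cell bars 91.2 to 95.6, and *Igtp* is the largest segment in each of the 6 libraries.

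Summed over the 10 members, the level was 352, 293 and 357 CPM per kilobase in CD8+ T cells, against 91.2, 95.6 and 91.8 in NK cells. The NK cell sums were close to each other although single members varied more between libraries. The chromosome 3 genes summed to 60.8 to 104 in CD8+ T cells, against 22.9 to 28.5 in NK cells. The chromosome 5 genes summed to 88.9 to 115 and 21.3 to 29.0, and the chromosome 11 genes to 117 to 171 and 39.9 to 45.8. In each of these clusters the NK cell sums were thus below the CD8+ T cell sums.

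*Igtp* and *Irgm2*, neighbours with nearly the same promoter letters, were set side by side within each library. This pair was chosen after its values were seen, so its ratio is a description with no test. The level of *Igtp* per kilobase was 93.5, 15.1 and 88.3 times that of *Irgm2* in CD8+ T cells, against 2.79, 5.80 and 5.25 times in NK cells. The ratio was thus above that of every NK cell library in every CD8+ T cell library, with library 2 of the CD8+ T cells nearest to the NK cells.

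The 19 other GTPase genes listed belong to the GBP and IRG families or to the very large inducible GTPases, a separate family. Of the 19 genes, 18 were in the table and 10 passed the filter on low counts. Of these, 3 were called lower in NK cells and none higher (5.14% and 6.24% of all genes tested), and 7 were not called. Every NK cell library lay above every CD8+ T cell library in 3 of the 10, and below in 3 (25.5% and 16.1% of all genes tested). The median log2 fold change was -0.25 over the 10, which include very large inducible GTPases. *Ifi47*, which encodes an IRG of the lysine class, had 18059, 17005 and 12983 normalised counts in CD8+ T cells, against 4009, 5273 and 4445 in NK cells (log2 fold change -1.81, edgeR adjusted p = 0.00416). *Tgtp2*, which encodes an effector IRG that loads onto vacuoles of parasites, had 8244, 9346 and 8836 against 629.6, 714.5 and 425 (log2 fold change -3.90, edgeR adjusted p = 0.000739). Both were separate in all libraries. *Tgtp1*, a near-identical copy of *Tgtp2*, had raw counts of 1545, 1514 and 1661 against 3, 1 and 11 (log2 fold change -8.58, edgeR adjusted p = 0.00518). Counts of the 2 copies are uncertain, since reads that fit both were left out. Of the genes that were not called, *Gm12250* had 1.2, 218 and 0 normalised counts in CD8+ T cells, against 642, 539 and 965 in NK cells (adjusted p = 0.343). *Gbp5*, a GBP known for promoting inflammasome assembly, had 1.2, 183 and 0 against 106, 89.6 and 96.2 (adjusted p = 0.876). *Gm12250* libraries did not overlap. For both genes CD8+ T cell library 2 stood apart from the other CD8+ T cell libraries. Without it *Gm12250* was called higher in NK cells (edgeR adjusted p = 0.0168). This library also held the *Tyrobp* and *Itgax* reads given above, and a link was not tested. *Ifi47*, *Tgtp2* and *Tgtp1* were called with any 1 library left out. *Gbp2b* and *Iigp1* had 0 counts in all 6 libraries.

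The called signalling genes upstream of the members did not move in one direction. Of 16 receptor and signalling genes, 2 were called higher in NK cells, 2 lower (6.24% and 5.14% of all genes tested) and 12 neither. Every NK cell library lay above every CD8+ T cell library in 7 of the 16, and below in 2 (25.5% and 16.1% of all genes tested). The median log2 fold change was 0.55. *Irf9*, which encodes the DNA-binding part of the ISRE-binding complex, had 4520, 1925 and 3119 normalised counts in CD8+ T cells, against 1132, 525 and 743.5 in NK cells (log2 fold change -1.99, edgeR adjusted p = 0.0431). It thus fell in the direction of the members called. *Ifnar2*, a chain of the type I interferon receptor, had 1909.9, 2193 and 1834 in CD8+ T cells, against 6186, 7228 and 8564 in NK cells (log2 fold change 1.89, edgeR adjusted p = 0.00451). *Jak1* rose by 1.39 on the log2 scale (edgeR adjusted p = 0.00995). *Tyk2* itself had a log2 fold change of 2.51 and was not called (edgeR adjusted p = 0.0755), except without CD8+ T cell library 1 or 2 (edgeR adjusted p = 0.0446 and 0.0395) and by DESeq2's Wald test (adjusted p = 0.00240). *Ifnar2* was called with any 1 library left out. *Jak1* was not called without NK cell library 1 or 3 (edgeR adjusted p = 0.0561 and 0.0530), and of the fits that left out 1 library, *Irf9* was called in the one without CD8+ T cell library 2 alone, the edgeR adjusted p of the others being between 0.0639 and 0.151.

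Of 19 genes of autophagy conjugation and the inflammasome, processes in which IRGM and GBP proteins take part, 18 passed the filter. Of these, 4 were called higher in NK cells and none lower (6.24% and 5.14% of all genes tested), with a median log2 fold change of 0.91. Every NK cell library lay above every CD8+ T cell library in 8 of the 18, and below in 3 (25.5% and 16.1% of all genes tested). *Casp1*, the inflammasome protease, was at 0 in all CD8+ T cell libraries and had 931, 1721 and 1434 normalised counts in NK cells (edgeR adjusted p = 0.00477). With a floor of 3 counts per CD8+ T cell library, the lower bound of the fold difference was about 399 for the NK cell mean. *Pycard*, the inflammasome adaptor, rose by 1.18 on the log2 scale (edgeR adjusted p = 0.0442). The LC3 relative *Gabarap* rose by 2.55 (edgeR adjusted p = 0.00230) and the autophagy receptor *Sqstm1* by 1.30 (edgeR adjusted p = 0.00498). *Map1lc3b*, which encodes the LC3 protein conjugated to membranes, had a log2 fold change of -0.25 (adjusted p = 0.290). None of the 4 called genes thus moved in the direction of the members. *Casp1*, *Gabarap* and *Sqstm1* were called with any 1 library left out, whereas *Pycard* was not called without CD8+ T cell library 3 or any 1 of the NK cell libraries (edgeR adjusted p = 0.0619 to 0.153), nor without the filter on low counts (edgeR adjusted p = 0.0516).

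**Figure D5:**
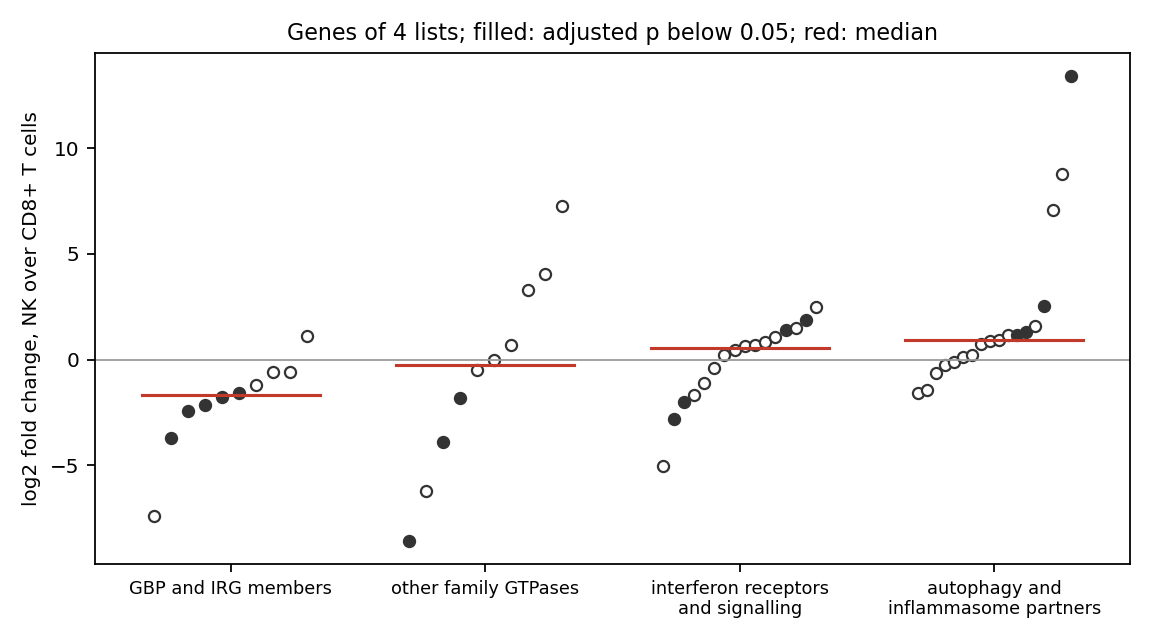
Log2 fold change in NK cells over CD8+ T cells of each gene that passed the filter in 4 gene lists, ordered by value within a list; filled points were called at an adjusted p below 0.05 and red lines are medians. The median is -1.68 in the 10 members, -0.25 in the other GTPases, 0.55 in the signalling genes and 0.91 in the autophagy and inflammasome genes. The other GTPases include very large inducible GTPases, a separate family.

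The genes whose pattern was most like the summed count of the 10 members over the 6 libraries were *Trav8d-1*, *Traj13*, *Traj47*, *Acvrl1* and *Tubb5*, with Pearson correlations of log2(normalised count + 1) between 0.9993 and 0.9998. The summed normalised count was 30285, 25103 and 29484 in CD8+ T cells, against 8469, 8391 and 8487.5 in NK cells. *Trav8d-1*, *Traj13* and *Traj47* are segments of the T cell receptor alpha chain, and with *Acvrl1* they were at 0 in the 3 NK cell libraries. These 6 points fall into 2 groups by cell type, and the value mostly restates that separation.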

How the data were processed

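RNA of sorted splenic cells (500 pg) was amplified with Smart-seq2 and sequenced as 50 bp single-end reads. Reads were trimmed (Trimmomatic 0.32) and aligned to mm10 (STAR 2.7.1) by the authors, and the deposited values are raw counts per gene of reads that aligned uniquely within exons. Multimapping reads were left out, and whether strand was used is not given in the sources used here. Of 104 columns of counts 6 were used and 98 were not, among them 3 labelled *WT* CD8+ T cells, since the labels list only 2 such samples. *Tyk2*-/- was therefore not compared with *WT*. The members and gene lists were chosen with earlier results of these data known.

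Counts were normalised with TMM factors in edgeR 4.0.16 (R 4.3.3), and genes whose normalised count averaged 10 or more entered the test. The 2 cell types were set against each other by quasi-likelihood (robust, Benjamini-Hochberg adjusted), a step run on simulated data first. The pass mark of that run was set on counts with far less spread between replicates than these data (common dispersion 1.24). It therefore does not show how the test performs at this spread. The SE is the absolute log2 fold change over the square root of F. Named were all 10 members, *Tyk2*, from the other lists the called genes and up to 4 more, a choice of cell type markers, and the 5 most correlated genes. A few listed genes are not reported by name here. Gene models and coding sequences came from GENCODE M21 and promoters from RefSeq. Alternatives were RLE normalisation, DESeq2 1.42.0, no filter, each library left out, total counts without TMM and, chosen after seeing the data, exon length without shared bases. Floors of 3 counts cover counting error only, and no molecular identifiers were used here. Nothing says that the pools came from separate litters, so p-values measure the spread between these libraries.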

Additional observations from a re-analysis of the deposited data

How the results depend on the processing

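Leaving out 1 library gave 2 to 5 called members and 476 to 1946 called genes, against 5 and 1600 with all libraries. The low values came without NK cell library 1, 2 or 3 (482, 485 and 476 genes), whereas 1669 to 1946 genes were called without a CD8+ T cell library. The cause was not tested. DESeq2 called 3729 genes and 7 members, RLE normalisation 1619 and 5, and no filter 1336 and 5. No direction was reversed among the members and the family, signalling and autophagy genes named. DESeq2 gave no adjusted p for *Gbp5*. Total counts without TMM factors lowered NK cells relative to CD8+ T cells, the mean log2 TMM factor differing by -0.35, and *Irgm2* stayed higher in NK cells on average. No paired analysis was possible because the groups compared share no replicate numbers in the labels and the columns of counts carry running numbers instead.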
